A study of Homo sapiens with 8 samples.

Results

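Guides against the protein genes of the small ribosomal subunit were followed in a pooled dropout screen for genes that A375 cells need to grow. They were chosen by gene symbol alone, as all guides whose target gene had an RPS symbol (or was RPSA or FAU) and was not typed as a non-essential control in the deposited table. The choice gave 195 guides on 26 exon-exon junctions of 16 genes, out of 46829 guides, 6735 junctions and 1250 genes. No guide to RPSA or FAU was among them. A375 is an established human melanoma line, and the cells were a single clone of it that carried RfxCas13d, an RNA-cutting CRISPR nuclease, behind a TetO promoter that doxycycline switches on. The guides entered as a lentiviral pool, and guide cassettes were amplified from genomic DNA in 8 libraries, with 2 replicates at each of 4 times. Day 0 was taken before treatment, and Day 7, Day 14 and Day 21 were taken under doxycycline at 1 ug/ml. Each value is the log2 fold change of a guide against Day 0 of the same replicate, so that a value below 0 means that cells with the guide became rarer in the pool, and 6 libraries have values. No group lacked the nuclease, so guides with no target and the other guides of the pool are the only reference. Since all cells descend from a single clone and nothing in the labels says how the replicates were separated, errors and p-values measure only the spread between the 2 replicates of that clone.

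The small subunit of the ribosome, built of a ribosomal RNA and many proteins, binds the messenger RNA and reads its codons while the large subunit joins amino acids. Its proteins are classed by where they sit, in the head, or in the body and platform. Most of them are needed for the subunit to mature in the nucleolus and the cytoplasm, so that loss of a single one can stop its assembly. Because RfxCas13d cuts RNA and leaves the gene intact, a guide on an exon-exon junction acts on spliced transcripts that hold that junction. A gene can therefore show different values at different junctions.

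A junction is given here by its deposited coordinates on hg38, the build named in the submitters' processing notes, and all 26 lay inside the span of their gene in RefSeq on GRCh38.p14. The deposited names of junction categories (common, single_unique, partial_unique and fully_unique) are used as they stand, since their definitions were not in the sources used here. Guide sequences were not used here. For 1 of the 26 junctions, the first of RPS12, the RefSeq sequence around the gene start reached the exon end, and it is shown to make plain what a junction coordinate marks:

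RPS12 exon 1 end, chr6:132814589-132814618, plus strand: agtcgcgcggaggcggaggcttgggGTaag

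The lower-case run before the capitals is the last 25 bases of exon 1, an exon 45 bases long, and the capitals GT are the first bases of the intron, so that the deposited start is the last base of the exon. The 8 guides on this junction had a mean log2 fold change of -1.56 and -0.66 at Day 21 in replicate 1 and replicate 2. The guides on the second junction of RPS12 were lower, and both are described with the other junctions of their genes.

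The fold changes carry their own depth. In every library each value was a constant plus the log2 of a ratio of whole numbers, within a relative tolerance of 1e-09, and the smallest such numbers give a lower bound for the number of reads behind a guide, any pseudocount included. For the small subunit guides the implied Day 0 number had a median of 95 in replicate 1 (lowest 8, highest 301) and 124 in replicate 2 (lowest 23, highest 383), close to 92 and 125 over all guides. At Day 21, 27 of the 195 guides stood at an implied number of 1 in replicate 1 and 35 in replicate 2, with 18 in both. Where 1 is the true number and not only its lower bound, a further fall could not have been measured. The means of the most depleted genes may therefore be limited from below.

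Cells with small subunit guides became rarer from week to week. Over the 195 guides the median log2 fold change in replicates 1 and 2 was -0.19 and -0.44 at Day 7. It was -0.86 and -1.05 a week later and -1.42 and -1.24 by Day 21. Non-targeting guides stayed near 0, with -0.038 and 0.0009 at Day 21. Relative to them, the small subunit median lay at -0.32 ± 0.20 (SD, n = 2) at Day 7, -0.94 ± 0.15 at Day 14 and -1.31 ± 0.10 at Day 21. Both replicates showed the same direction at each day, but an exact sign-flip test of 2 differences cannot give a two-sided p under 0.5. At Day 21, 59.0% of the small subunit guides were at or below -1 in replicate 1 and 55.4% in replicate 2, against 17.2% and 16.4% of the non-targeting guides. Over all 46829 guides it was 33.0% and 30.7%, over the non-essential control guides 22.9% and 20.2%, and over the large subunit guides 67.4% and 67.1%.

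Of the 16 genes, 13 were lower than Day 0 at Day 21 by limma on the mean of each gene's guides, with Benjamini-Hochberg adjusted p under 0.05 over all 1223 genes with at least 3 guides, where 20.8% were called lower. None of the 16 was called higher, and none had a higher value at an unadjusted p under 0.05 (0 of 16). All 13 had a mean below 0 in both replicates. Of them 10 are described here by name, with standard errors of 0.14 to 0.28 and limma adjusted p of 0.0107 to 0.0288. The genes not called were RPS15A, RPS21 and RPS18. Setting each library's median over all guides to 0 adds 0.33 and 0.28 to the Day 21 values, and 4 of the 13 calls then held (RPS4X, RPS14, RPS24 and RPS13). With the median of a gene's guides in place of their mean, 3 held (RPS4X, RPS14 and RPS12). Over all 1223 genes the number called lower went from 254 to 62 and 25 with these changes. At an unadjusted limma p under 0.05, 13 and 12 of the 16 genes passed.

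Among the genes described here, RPS4X, an X-linked body protein that binds ribosomal RNA, was lowest. In replicates 1 and 2 its mean log2 fold change was -1.15 and -2.11 at Day 7, -3.18 and -3.57 at Day 14 and -3.85 and -3.90 at Day 21. The replicates, apart at Day 7, nearly coincided at Day 21, with a mean of -3.88 ± 0.034 (SD, n = 2; SE 0.14; limma adjusted p = 0.0107). As a geometric mean over the guides of RPS4X, that is 6.81% of the Day 0 abundance. Of its 16 guides, 11 were called lower.

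RPS14, a platform protein known for its loss with part of the long arm of a chromosome in a myelodysplastic syndrome, was not called at Day 7 and fell thereafter. It had -0.44 and -0.45 at Day 7, -1.92 and -1.70 at Day 14 and -2.62 and -2.91 at Day 21, with a Day 21 mean of -2.77 ± 0.21 (SD, n = 2; SE 0.16; limma adjusted p = 0.0107). RPS19, a head protein whose gene is often mutated in Diamond-Blackfan anaemia, reached a similar level. Its course was not tested against that of RPS14. RPS19 had -0.69 and -1.68 at Day 7, -2.31 and -2.22 at Day 14 and -3.19 and -2.32 at Day 21. Its Day 21 mean was -2.76 ± 0.62 (SD, n = 2; SE 0.28; limma adjusted p = 0.0155), and replicate 2 moved little after Day 14. RPS24, a body protein also mutated in some patients with that anaemia, had -0.28 and -0.85 at Day 7, -1.77 and -2.32 at Day 14 and -2.45 and -2.69 at Day 21, a mean of -2.57 ± 0.17 (SD, n = 2; SE 0.16; limma adjusted p = 0.0107). The order of RPS14, RPS19 and RPS24 is not resolved, since the ranges of their replicates overlap at Day 21.

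Next came genes with Day 21 means between -2.53 and -1.65. RPS28, a head protein at the exit of the messenger RNA channel, stood at -2.53 (limma adjusted p = 0.0124), and RPS29, a small zinc-binding protein of the head, at -2.43 (limma adjusted p = 0.0189). RPS13, a body protein that binds the central part of the ribosomal RNA, stood at -2.32 (limma adjusted p = 0.0107). These 3 have similar means but differ in what they average, as the junctions show. RPS12, in the beak of the head, was at -2.04 (limma adjusted p = 0.0213). RPS25, a head protein studied for its part in internal initiation on viral RNA, was at -1.65 (limma adjusted p = 0.0195).

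Among the highest genes were RPS26, RPS15A, RPS21 and RPS18, of which RPS26 was called lower. RPS26, which contacts messenger RNA just upstream of the start codon, had -0.14 and -0.30 at Day 7, -0.97 and -0.65 at Day 14 and -1.13 and -0.91 at Day 21, a mean of -1.02 ± 0.15 (SD, n = 2; SE 0.15; limma adjusted p = 0.0288). Most of that mean comes from 1 of its 7 guides, and with the median over guides the value was 0.088 (limma adjusted p = 0.892).

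RPS15A, a body protein that binds ribosomal RNA early in assembly, had -0.19 and -0.39 at Day 7, -0.031 and -1.02 at Day 14 and 0.28 and -0.68 at Day 21. Its replicates stood on opposite sides of 0 at Day 21, with a mean of -0.20 ± 0.67 (SD, n = 2; limma adjusted p = 0.683). RPS21, of the platform, had -0.29 and -0.057 at Day 7, -0.12 and -0.58 at Day 14 and -0.22 and -0.15 at Day 21, a mean of -0.18 ± 0.045 (SD, n = 2; limma adjusted p = 0.432). RPS18, a head protein that touches the large subunit, had 0.054 and 0.12 at Day 7, 0.059 and 0.41 at Day 14 and -0.019 and 0.11 at Day 21 over its 5 guides, a mean of 0.044 ± 0.089 (SD, n = 2; limma adjusted p = 0.861). The means of RPS15A and RPS21 turn to 0.11 and 0.12 when all guides are centred on 0. These 3 genes had 1 or 2 junctions each.

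The deposited table typed 13 of the genes as Cas13 Essential and 3 as Cas13 Non-Essential (RPS29, RPS15A and RPS18), by a rule not in the sources used here. Whether the type was drawn from these same data is therefore not known here. RPS29, typed as Cas13 Non-Essential, was called lower here, and RPS21, at -0.18, was typed as Cas13 Essential. By position, 6 of 7 head proteins were lower at Day 21 with a median gene mean of -2.04, and 7 of 9 body and platform proteins with a median of -2.32. The deposited GeCKO gene score, which carries the name of a library for knockout with Cas9, ran from -1.84 for RPS18 to -1.02 for RPS25. Over the 16 genes it showed no close relation to the Day 21 mean (Pearson r -0.289, Spearman rho -0.135), and the gene with the lowest score had the highest mean.

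In time, 6 genes were already lower at Day 7 (RPS4X, RPS19, RPS28 and RPS13 among them) by limma, where 3.92% of all genes were called, and 13 at Day 14, where 22.1% were. The Day 7 count is fragile, since by limma it fell to 0 in 5 of the 8 other ways of scaling or fitting, with 7 to 13 genes at an unadjusted p under 0.05. The 13 called at Day 14 were the 13 called at Day 21. The same 13 were lower at Day 21 than at Day 7 by limma on the paired difference, where 23.5% of all genes were. For the 10 genes described here those differences ran from -2.32 for RPS14 to -0.80 for RPS26, with a largest limma adjusted p of 0.0178. In 12 of the 13 genes the step from Day 7 to Day 14 exceeded the step from Day 14 to Day 21 in both replicates, RPS12 being the exception in replicate 2. The median step was -1.16 from Day 7 to Day 14 and -0.48 from Day 14 to Day 21. How many of all genes shared this order of steps was not counted. A larger early fall was not confined to the small subunit. By successive day, the median gene mean of all 1223 genes went -0.031, -0.24, -0.28, and that of the large subunit -1.29, -2.74, -2.83. The Day 14 library enters both steps with opposite sign, and guides already at an implied number of 1 may have been unable to fall further.

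Junctions of the same gene gave very different values. Of 25 small subunit junctions with at least 3 guides, 17 were lower at Day 21 by limma, against 25.3% of all 6401 junctions tested, 18 at Day 14 (21.9%) and 2 at Day 7 (0.625%), the first junction of RPS4X among them. Within genes, 16 junctions of 7 genes could be set against the gene's other junctions, and 12 differed by limma, 6 lower and 6 higher, against 21.3% of all 6110 junctions tested this way. They lay in 6 of the 7 genes, while 45.6% of 928 genes held such a junction. Where a gene has a pair of junctions the 2 tests are mirror images and count as 1 contrast. The tests hold only the spread between replicates of junction means, and the spread between guides does not enter. How far the choice of guides shapes these contrasts was not tested.

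The widest contrast was in RPS29. Its first junction, counted along the transcript, runs over chr14:49586049-49586284 on the minus strand and is deposited as partial_unique. The second runs over chr14:49577853-49585949 and is deposited as fully_unique. The first had -0.95 and -2.14 at Day 7, -3.71 and -4.81 at Day 14 and -4.05 and -5.65 at Day 21, while the second had 0.25 and 0.17, 0.15 and -0.013, and 0.11 and -0.12. The difference at Day 21 was -4.84 (SE 0.38; limma adjusted p = 9.69e-11). All 8 guides of the first junction were below 0 in both replicates, with 7 called lower, and none of the 8 guides of the second was called. The ranges of the guide means did not overlap. Between the lowest and the highest junction of RPS4X, RPS25, RPS24, RPS12, RPS13, RPS15A and RPS26 they did. The share over all genes was not counted. The first junction was the 44th lowest of 6401, and the gene mean of -2.43 describes neither junction.

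In detail, the guides of the first RPS29 junction ran at Day 21 from -6.68 and -6.79 (guide 3) and -6.11 and -7.30 (guide 5) to -1.58 and -3.09 (guide 6). Those of the second ran from -2.06 and -0.89 (guide 7) to 1.04 and 0.57 (guide 5). Every guide of the first junction thus lay at or below -1.58 in each library, a level that 1 value of the second junction passed, that of guide 7 in replicate 1.

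RPS25 was lowest, in both replicates, at the tested junction nearest the start of its transcript. The other junctions of RPS25 changed order between the replicates and were not tested against each other. Its first junction (chr11:119018053-119018281, minus strand) stood at -3.32 and -4.23 at Day 21, the second (chr11:119015939-119017361) at -1.13 and -0.71, and the third (chr11:119015758-119015840) at 0.25 and -0.77. Against the gene's other junctions the first was lower by -3.19 (SE 0.36; limma adjusted p = 7.53e-08), the second higher by 1.10 (SE 0.38; limma adjusted p = 0.0359) and the third higher by 2.09 (SE 0.37; limma adjusted p = 6.13e-05). All 8 guides of the first junction were below 0 in both replicates, but not alike. Guides 1, 2, 6, 7 and 8 were called lower, with guide 2 at -7.33 and -7.30, whereas guides 3, 4 and 5 lay between -1.23 and -0.74 in both replicates. Each of guides 3, 4 and 5 was higher than the other guides of the junction, by 3.12 to 3.23 (SE 0.91; limma adjusted p = 0.0133, 0.0182 and 0.0145).

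RPS4X was low at both junctions, and more so at the first. The first (chrX:72273389-72273800, minus strand) had -2.02 and -3.62 at Day 7, -4.60 and -5.03 at Day 14 and -5.47 and -5.36 at Day 21, and all 8 of its guides were called lower. It was the 17th lowest of all junctions tested, and the geometric mean over its guides was 2.34% of the Day 0 abundance. The second (chrX:72272772-72273231) had -2.24 and -2.44 at Day 21, higher by 3.08 (SE 0.36; limma adjusted p = 1.21e-07), with 3 guides called. Even at the lower junction 1 guide stood apart, guide 4 with -2.77 and -2.34, while the rest reached -4.07 or lower in each replicate.

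RPS24 and RPS12 ran the other way, with the second junction lower. In RPS24 the first junction (chr10:78035417-78035510, plus strand) had -1.02 and -1.49 at Day 21 and the second (chr10:78035720-78037193) -3.88 and -3.89, a difference of 2.63 (SE 0.36; limma adjusted p = 1.87e-06). At the first, 2 of 8 guides carried the fall, guide 1 with -2.89 and -5.98 and guide 3 with -5.15 and -4.82, and the other 6 lay between -2.10 and 1.42. In RPS12 the first junction, whose exon end is printed above (chr6:132814613-132814731), had -1.56 and -0.66 and the second (chr6:132817061-132817479) -3.32 and -2.62, a difference of 1.86 (SE 0.36; limma adjusted p = 0.000218). Guide 2 of the second junction differed most between replicates, with -6.28 in replicate 1 and 0.17 in replicate 2.

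In RPS13 the 3 junctions were all called lower, and the first (chr11:17077246-17077428, minus strand), with -2.65 and -3.86, was lower than the others by -1.40 (SE 0.38; limma adjusted p = 0.00671). The second (chr11:17075623-17077167) had -1.92 and -2.08 and the third (chr11:17074466-17075096) -1.86 and -1.56, and neither was called against the others (limma adjusted p = 0.388 and 0.0776). RPS15A was the 1 gene of the 7 with no junction called. Its first junction (chr16:18786336-18788062, minus strand, fully_unique) had 0.51 and -0.25 and its second (chr16:18783102-18784737, partial_unique) 0.074 and -1.05, a difference of 0.62 (SE 0.36; limma adjusted p = 0.250). In replicate 1 neither was below 0 at Day 21, although the second junction was called lower at Day 14, with -0.35 and -1.58.

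RPS26 had 2 guides on its first junction (chr12:56042169-56042424, plus strand), too few for the test, and 5 on its second (chr12:56043493-56044118). Guide 1 of the first junction fell to -6.76 and -4.64 at Day 21, while the other guide there had 0.64 and -0.86. The second junction had -0.36 and -0.18 and was not called (limma adjusted p = 0.709). Of the 7 guides of RPS26, this 1 was called lower at Day 21.

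Of the genes described here 5 had a single junction. The junctions of RPS14 (chr5:150445685-150446801, minus strand), RPS19 (chr19:41869753-41871350, plus strand) and RPS28 (chr19:8321703-8321952, plus strand) were all called lower. Those of RPS21 (chr20:62387388-62387610, plus strand) and RPS18 (chr6:33276267-33276390, plus strand) were not. A value for another junction of these genes was not analysed here, so their levels stand for 1 place in the transcript.

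By deposited category, the 15 guides on the 2 fully_unique junctions, of RPS29 and RPS15A, had Day 21 medians of 0.15 and 0.059, and neither junction was called. The 2 partial_unique junctions, of the same genes, had guide medians of -2.90 and -2.83, and that of RPS29 was called. Of the 14 common junctions 9 of 13 tested were lower, with guide medians of -1.58 and -1.18, and of the 8 single_unique junctions 7 were, with -1.85 and -1.94. The same 2 genes hold the fully_unique and the partial_unique junctions, so between these categories the gene is shared. Category cannot be told apart there from the single junction in each gene. Against the common and single_unique junctions, which lie in other genes, category and gene cannot be told apart. The junctions' introns were 81 to 8095 bases long. In RefSeq, such an intron holds a small nucleolar RNA gene at 3 junctions of the genes described here, SNORA33 in the second of RPS12 and SNORD14B and SNORD14A in 2 of those of RPS13, and the part of these genes in the values was not tested.

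Single guides differed more within a junction than between replicates. Over the 25 junctions the SD over guide means at Day 21 ran from 0.637 to 2.96 with a median of 1.88, against a median replicate SD of 0.930 for a guide. In 13 of the 25 the lowest guide mean was below -4 and the highest above -1. Guides of a junction are directed at the same junction, so they are repeated looks at 1 place and not replicates of the cells. By limma, 74 of the 195 guides were lower than Day 0 at Day 21, against 11.1% of all guides, 62 at Day 14 (7.96%) and 28 at Day 7 (2.1%). None was called higher at Day 21, where 0.218% of all guides were, and 2 of the 195 were higher at an unadjusted p under 0.05.

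Against the other guides of their own junction, 40 of 193 guides differed by limma, 21 lower and 19 higher, in 19 junctions of 12 genes, where 6.46% of all guides did. Among the lowest guides of the 176 whose implied number at Day 0 was 50 or more in both replicates were guide 4 of RPS28 (-6.77 and -8.05), guide 2 of the first RPS25 junction (-7.33 and -7.30), guide 7 of the third RPS13 junction (-6.57 and -7.44) and guide 1 of the second RPS4X junction (-6.69 and -7.18). These 4 had an implied number of 1 at Day 21 in both replicates. They lie in 4 genes. In RPS13 the other 7 guides of the same junction lay between -2.45 and 0.21.

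Among the highest guides were guide 6 of the second RPS15A junction (2.59 and 1.55), guide 6 of the first RPS12 junction (0.67 and 2.97), guide 7 of the second RPS13 junction (0.81 and 2.48), guide 6 of RPS21 (0.78 and 2.20) and guide 4 of the second RPS25 junction (0.32 and 2.19). These 5 were above 0 in both replicates, and none was called higher against Day 0. RPS13 and RPS25 thus hold guides at both ends.

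RPS28 shows how few guides can carry a gene mean. Its lowest were guides 2, 3 and 4, with -1.42 and -5.40, -5.04 and -5.72, and -6.77 and -8.05, while guide 8 stayed at -0.011 and 0.13. Of its 8 guides, 3 were called lower.

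The number in a guide's name went along with its value among these guides. Guides numbered 1 to 4 had a Day 21 median of -2.16 and -1.59 in replicates 1 and 2 (98 guides) and guides 5 to 8 of -1.02 and -1.08 (97 guides), differences of -1.14 and -0.51. The large subunit guides gave -0.36 and 0.32 for the same difference and all targeting guides -0.012 and 0.019. What the number stands for was not in the sources used here, no test was made, and the split was chosen after the medians by number had been seen.

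Agreement of the replicates was closer for genes than for guides. Pearson's r between the replicates at Day 7, Day 14 and Day 21 was 0.715, 0.740 and 0.737 across the 195 guides. Across the 16 genes it was 0.938, 0.905 and 0.892. These describe the spread only, since guides of a gene share their target and all values of a replicate share 1 Day 0 library.

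The proteins of the large subunit were the closest comparison. The median of the small subunit guides lay above that of the large subunit guides by 0.47 ± 0.15 (SD, n = 2) at Day 7, 1.28 ± 0.073 at Day 14 and 1.48 ± 0.046 at Day 21, in both replicates each time (1.45 and 1.51 at Day 21). The exact sign-flip test again cannot go under 0.5. With means in place of medians the Day 21 difference was 0.88. Per gene the gap was narrower, with 23 of 28 tested large subunit genes lower at Day 21 and a median gene mean of -2.83, against 13 of 16 and -2.29 for the small subunit. The large subunit genes ran from RPL27A at -5.37 to RPL30 at -0.21. Further lists were the factors that assemble the small subunit, with 10 of 32 genes lower and a median of -0.59 (from FBL at -2.63 to RRP36 at 0.30), and the initiation factors that load messenger RNA onto it, with 5 of 10 and -0.97 (from EIF3B at -2.56 to EIF3J at 0.0046). Over all 1223 genes the median was -0.28 with 254 lower.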

How the data were processed

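The authors deposited 1 table, which per the file headers holds log2 fold changes by guide, day and replicate. A GeCKO gene score is deposited beside them for some genes, and how the authors made it was not given in the sources used here. The deposited log2 values are relative to Day 0 of the same replicate, and pseudocount, library scaling and filters were not given in the sources used here. Bowtie 1.1.2, cutadapt 3.5 and hg38 are named in the submitters' processing notes. All 46829 guides were kept. Guide, junction and gene means (at least 3 guides) were tested against 0 with limma 3.58.1 in R 4.3.3. Each day was fitted alone over the whole table, with Benjamini-Hochberg adjustment and a threshold of 0.05. The fit was also run on independent values simulated with the spread that limma itself had estimated. Those values hold no shift common to a library and no lower limit, so that run cannot check for either. Junctions were also tested against the other junctions of their gene, guides against the others of their junction, and Day 21 against Day 7. For junctions at Day 21 limma's prior was infinite, so that all shared 1 spread. Python with pandas and numpy did the rest.

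Named were every member gene, with all library values for the 5 lowest and 5 highest, each junction called against its gene's others, and the 6 lowest and 6 highest guides whose implied number at Day 0 was 50 or more in both replicates. Of the members 3 genes, with their junctions and guides, are not reported here by name, though they are kept in every count over all members. Further junctions and guides were named after their values were seen. The members and lists were chosen with earlier results of these data known. Replicate numbers pair the days, and all days of a replicate share its Day 0 library. The replicate differences of all guides correlated at 0.484 (Day 7 with Day 14), 0.411 (Day 7 with Day 21) and 0.647 (Day 14 with Day 21). The part of the shared Day 0 library in these correlations was not tested. A fit with the replicate block gave 3 guides in place of 28 and 6 junctions in place of 2 at Day 7. Gene names and spans came from RefSeq (GRCh38.p14). The depth of a library as a total was not in the sources used here, and implied numbers cover counting error only.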

Additional observations from a re-analysis of the deposited data

Results flagged for a closer look

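The values of 10 small subunit genes differed between Day 21 and Day 7 by limma on the paired difference. The Day 21 value minus the Day 7 value was -2.32 for RPS14, -2.25 for RPS4X, -2.01 for RPS24, -1.81 for RPS28, -1.76 for RPS29, -1.64 for RPS12, -1.57 for RPS19, -1.54 for RPS13, -1.20 for RPS25 and -0.80 for RPS26, each lower in both replicates. Among all genes 23.5% showed such a fall. The groups of 2 libraries are too small to look for a library that stands apart.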

How the results depend on the processing

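Counts at Day 7 depended most on the fit. The 28 guides became 0 with all days in 1 fit and no block (23 at an unadjusted p under 0.05), and 3 when the fit held the replicate block. The 6 genes became 3 with libraries centred on non-targeting guides, and by limma 0 with centring on all guides, on control guides, with 1 fit over days, with robust empirical Bayes or with guides of implied Day 0 number of at least 50 (12, 13, 7, 12 and 11 at an unadjusted p under 0.05). The 2 junctions became 5 (all guides), 10 (control guides), 0 (1 fit, with 11 at an unadjusted p under 0.05), 6 (replicate block), 1 (robust) and 4 (median). At Day 21 the 13 genes became 4 when centred on all guides and 3 with medians, and the 13 with a Day 21 minus Day 7 fall became 8 and 5. Among all 1223 genes, the 254 called lower at Day 21 became 62 and 25 with these settings. RPS26 turned to 0.088 with the median. Beside these, 83 other values stayed within 1.5 times or 1 SD. With means in place of medians, the small subunit minus non-targeting difference was -0.67, -1.69 and -2.06 at Day 7, Day 14 and Day 21, and small minus large 0.99 and 0.88 at Day 14 and Day 21. With well-covered guides the latter were 1.49 and 1.58. The cause was not tested. Counts without 1 replicate could not be refitted, since no residual degrees of freedom remain. The block moved no other count by over 1.5 times.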
